A study of Rattus norvegicus with 2 samples.

Results

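10 genes that mark blood vessel endothelium were followed in the thymus of rats given cocaine, Pecam1, Cdh5, Cldn5, Kdr, Tek, Tie1, Emcn, Vwf, Plvap and Cav1. They were chosen by symbol, as the transcript clusters whose platform annotation names one of them, and all 10 were found among 15037 named genes, each with 1 transcript cluster. A transcript cluster is the set of short probes that measures one gene on a Clariom S array. The cocaine group received 20 mg/kg/day cocaine hydrochloride in saline through the tail vein for 7 days, and the control group, which the labels call unstimulated, received saline according to the methods. Both groups were male Sprague-Dawley rats, 8 weeks old, killed 1 day after the last injection. Thymus RNA of each group was hybridized to 1 array, and whether it came from a single rat or a pool was not given in the sources used here. There is thus no replicate spread, no test was run, and every difference compares 2 arrays. The titles name thymus, but spleen is the organ given in the extraction note. The treatment note of both samples, the control included, describes cocaine injections, so the groups and the sign of every difference follow the titles alone.

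Endothelial cells line the vessels that bring progenitors into the thymus and let mature T cells leave it. In the cortex they form tight capillaries, and around the border with the medulla they form venules through which cells cross. Growth factor receptors keep them alive, junction proteins seal them to each other, and caveolae and diaphragms control what passes through them. RNA of the whole organ was measured, so fewer endothelial cells and less RNA per endothelial cell cannot be told apart.

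As a group the measured values of the endothelial genes differed little between the cocaine thymus and the control thymus. Only Pecam1, Cdh5, Cldn5 and Cav1 were above all rows named as background on both arrays. For the other members a small difference does not show that the mRNA was unchanged. Tek, the receptor for angiopoietins, was 1.52-fold higher with cocaine in deposited intensity and was the only member past 1.5-fold. Cav1, the coat protein of caveolae, was 1.40-fold lower in deposited intensity and lay closest to the limit on the other side. The remaining 8 genes lay within 1.22-fold, and Cdh5 and Vwf had exactly the same deposited value on both arrays. The median of the cocaine minus control differences was -0.02 on the log2 scale over the 10 genes, compared with 0.01 over all 23188 transcript clusters. As deposited, 484 of all transcript clusters were higher by more than 1.5-fold and 581 were lower by as much. After quantile normalization Tek was 1.5004-fold higher. On that scale 1.98% of all transcript clusters were higher by more than 1.5-fold and 2.29% were lower by as much. Among the 6401 with a mean level between those of the dimmest and the brightest member, the shares were 2.84% and 2.75%. No member was past 2-fold in either direction, against 0.151% higher and 0.224% lower over all transcript clusters. 1 higher gene of 10 is a single gene just past the limit, and with 1 array per group nothing further is read from that count.

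**Figure D1:**
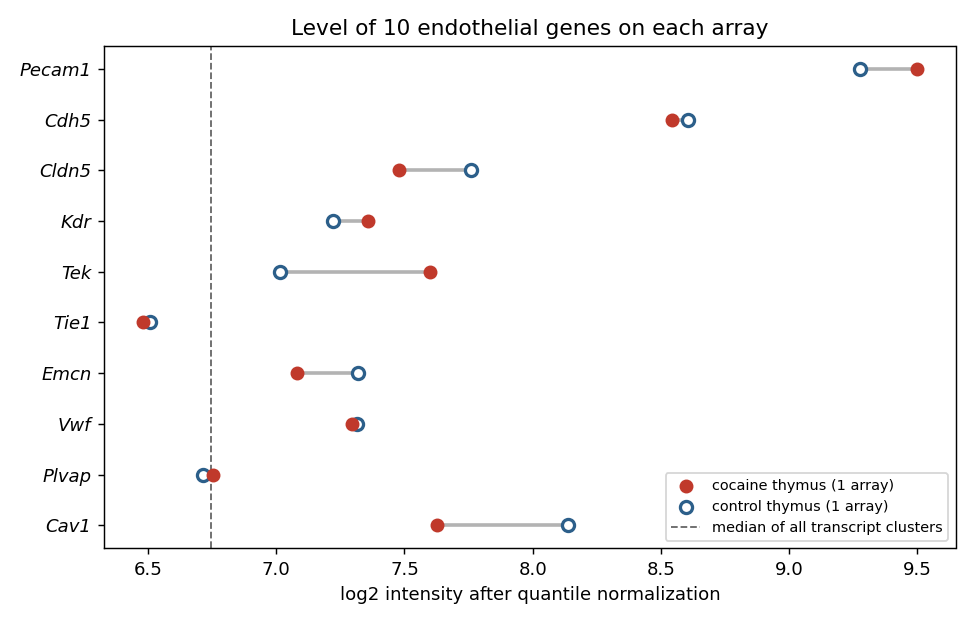
Log2 intensity after quantile normalization (horizontal axis) of the 10 endothelial genes (vertical axis) in the cocaine thymus (filled red) and the control thymus (open blue), 1 array each, with a dashed line at the median of all transcript clusters (6.75). Tek lies at 7.60 with cocaine and 7.01 in the control, Cav1 at 7.63 and 8.14 in the same order, and the symbols of Vwf and Tie1 nearly coincide.

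Levels are given as the deposited linear intensity and, for comparison of the arrays, as log2 values after quantile normalization. Their position is the percentile among all transcript clusters of the same array. The brightness of a probe set depends on its sequence as well as on the mRNA, so these positions do not rank the mRNAs. The members lay between percentiles 46.4 and 75.1 on the cocaine array and between 46.7 and 73.4 on the control array. For scale, 23 rows named as background by GC content held intensities from 8.75 to 177, identical on both arrays. Only Pecam1, Cdh5, Cldn5 and Cav1 were above the highest of these on both arrays, and Tek was above it on the cocaine array only. A further 1153 rows whose names mark them as negative controls had a median of 169 on the cocaine array and 167 on the control array, and the same 4 genes were above it on both. The 75th percentile of these rows was 448 on the cocaine array and 494 on the control array, and only Pecam1 was above it. The endothelial markers were thus measured at intermediate intensities, and 6 of them were not above all background rows on both arrays. Immature thymocyte markers on the same arrays lay between percentiles 86.3 and 99.9.

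Of the junction genes, one was somewhat higher with cocaine, one was identical and one somewhat lower. Pecam1 (TC1000003961.rn.2), an adhesion molecule of endothelial contacts that platelets and leukocytes also carry, had an intensity of 739 in the cocaine thymus and 607 in the control thymus. It lay at percentiles 75.1 with cocaine and 73.4 in the control, and differed by 0.22 on the log2 scale. Of the 1000 transcript clusters nearest to it in mean level, 167 had a more positive difference. Cdh5 (TC1900000933.rn.2), the VE-cadherin of adherens junctions and the member most restricted to endothelium, held 381 on both arrays. Quantile normalization placed it at 8.54 with cocaine and 8.60 in the control, a difference of -0.06 that the scaling itself made. Cldn5 (TC1100001973.rn.2), a tight junction claudin of capillaries with a barrier, had 180 in the cocaine thymus and 214 in the control thymus, lower by 1.19-fold. Its log2 values were 7.48 with cocaine and 7.76 in the control, and 10.4% of all transcript clusters had a more negative difference. The difference of Cldn5 lay below that of Cdh5 by 0.22 on the log2 scale after quantile normalization and 0.25 on the deposited values. Exactly equal deposited values were held by 27.2% of all transcript clusters, so the equality of Cdh5 does not show that its mRNA was unchanged.

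Of the 12 measured genes of a wider list of junction genes, only Jup exceeded 1.5-fold, with a higher value in the cocaine thymus. Jup encodes plakoglobin, which binds cadherins inside the cell and is shared with epithelium, and had a log2 intensity of 11.17 with cocaine and 10.56 in the control. Jam3, a junctional adhesion molecule, was 6.95 with cocaine and 6.53 in the control, and the gap junction gene Gja4 was 5.58 with cocaine and 5.32 in the control. The median of the list was 0.00 on the log2 scale, with 3 genes identical as deposited.

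Of the receptor genes, Tek had the largest difference. Kdr (TC1400000404.rn.2), the main signaling receptor for VEGF-A, had an intensity of 165 in the cocaine thymus and 148 in the control thymus, a difference of 0.14 on the log2 scale. Tek (TC0500000993.rn.2) had 195 in the cocaine thymus and 128 in the control thymus. Its log2 values were 7.60 with cocaine and 7.01 in the control, a difference of 0.59. Over the whole array 456 transcript clusters, 1.97%, had a more positive difference than Tek. Among the 1000 nearest to it in mean level there were 32, and the central 95% of these neighbours ran from -0.58 to 0.62. The difference of Tek was 0.61 as deposited, 0.63 with each array centred on its median and 0.60 after lowess, each past 1.5-fold. The control value of Tek and both values of Kdr were within the range of the background rows.

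Tie1 (TC0500003457.rn.2), a receptor of the same family that pairs with Tek, had an intensity of 88.0 in the cocaine thymus and 92.2 in the control thymus. Both values were below the median of the background rows (109), so its difference of -0.03 on the log2 scale does not show whether Tie1 changed, and Tek is not set against it.

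Ligands and partners of these receptors are given from lists chosen for the purpose. Angpt1, the ligand that activates Tek, was 10.89 on the log2 scale with cocaine and 10.57 in the control, 1.25-fold higher. Angpt2, the ligand that can oppose it, held identical deposited values on both arrays (313), and Angpt4 was 6.08 with cocaine and 5.93 in the control. All 3 lay within 1.5-fold. All 9 measured VEGF ligands and receptors also lay within 1.5-fold, with a median of -0.09, and 3 of them were identical as deposited. Vegfa was 8.63 with cocaine and 8.99 in the control, and Vegfb was 8.03 with cocaine and 8.44 in the control. Nrp2, a co-receptor for VEGF-C and semaphorins, was 8.52 with cocaine and 8.14 in the control. The receptor Flt1 was identical as deposited (99.0 on both arrays).

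**Figure D2:**
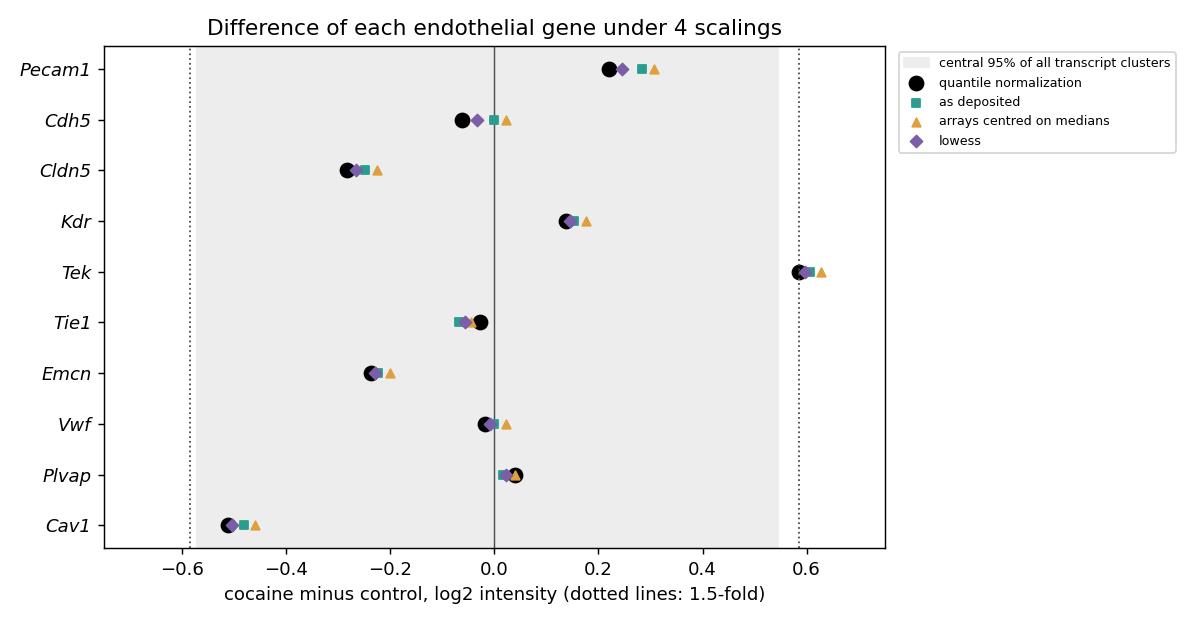
Cocaine minus control difference in log2 intensity (horizontal axis) of each endothelial gene (vertical axis) after quantile normalization (black) and under 3 other scalings, with dotted lines at 1.5-fold and grey shading over the central 95% of all transcript clusters (-0.57 to 0.55). Tek lies at or past the upper dotted line under each scaling, Cav1 lies inside the lower one under each, and Cdh5 and Vwf lie on either side of 0 depending on the scaling.

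The surface and secreted glycoproteins differed by small amounts. Emcn (TC0200002271.rn.2), a sialomucin of capillaries and veins, had an intensity of 136 in the cocaine thymus and 159 in the control thymus. Its log2 difference was -0.24, and 12.8% of all transcript clusters had a more negative one. Vwf (TC0400001801.rn.2), the clotting protein stored in granules of endothelium and also made by megakaryocytes, held 158 on both arrays. Emcn and Vwf lay within the range of the background rows on both arrays, which limits what their values show. Of 5 measured platelet and megakaryocyte markers, none was past 1.5-fold, and their summed intensity was 293 in the cocaine thymus and 326 in the control thymus, none reaching the 50th percentile. Among 6 measured endothelial genes of hemostasis, only F2r exceeded 1.5-fold, and it also exceeded 2-fold. F2r is the thrombin receptor of endothelium and other cells, at 10.95 with cocaine and 9.59 in the control. Tfpi, an inhibitor of coagulation, was 9.27 with cocaine and 9.39 in the control. Procr, the endothelial protein C receptor, was 5.41 with cocaine and 5.81 in the control.

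Of the genes of caveolae and diaphragms, Cav1 was above all background rows on both arrays and Plvap was not. Plvap (TC1600001362.rn.2), which builds the diaphragms of fenestrae and caveolae, had an intensity of 107 in the cocaine thymus and 106 in the control thymus. Both were below the median of the background rows, so the near equality does not show that Plvap was unchanged. Cav1 (TC0400000427.rn.2), the main coat protein of caveolae in endothelium, adipocytes, fibroblasts and smooth muscle, had 200 in the cocaine thymus and 279 in the control thymus. Its log2 values were 7.63 with cocaine and 8.14 in the control, a difference of -0.51. Over the whole array 3.45% of transcript clusters had a more negative difference, as did 40 of the 1000 nearest in mean level. The difference of Cav1 was -0.48 as deposited, -0.46 with arrays centred on their medians and -0.50 after lowess.

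None of the other measured caveola genes had a difference as negative as that of Cav1. Of 6 measured, only Cavin1 exceeded 1.5-fold, and it was higher with cocaine; the median was 0.15. Cavin1, the coat protein that works together with Cav1, was 6.90 with cocaine and 6.28 in the control. Pacsin2, a membrane-bending protein found also outside caveolae, was 10.70 with cocaine and 10.20 in the control. Ehd2, which holds caveolae at the surface, was 6.23 with cocaine and 6.03 in the control. Cav2, the partner of Cav1, was 5.90 with cocaine and 5.81 in the control. In deposited intensity Cavin1 (120 with cocaine and 79.1 in the control) lay within the range of the background rows. So did Ehd2 (74.5 and 66.2 in the same order) and Cav2 (59.1 and 57.0), and of this list only Pacsin2 was above that range. The list therefore does not show whether the partners of Cav1 changed.

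Markers of other cells that contain caveolae did not all lie on the side of Cav1. Of 8 measured adipocyte markers, Adipoq (8.31 with cocaine and 9.56 in the control) and Pparg (5.53 with cocaine and 6.20 in the control) were past 1.5-fold, both lower with cocaine. Pparg, at intensities of 45.4 with cocaine and 74.1 in the control, was below the median of the background rows. After quantile normalization 4 of the 8 differences were above 0 and 4 below, with a median of -0.07. The summed intensity of the 8 was 890 in the cocaine thymus and 1320 in the control thymus. Adipoq alone held 324 and 739 of these, so the sums do not describe the adipocyte markers as a group. The 8 fibroblast markers all lay within 1.5-fold, at summed intensities of 3272 with cocaine and 3565 in the control. Of 11 mural cell markers, which mark pericytes and vessel smooth muscle, only Notch3 was past 1.5-fold, at 7.73 with cocaine and 7.14 in the control. Abcc9 was 6.86 with cocaine and 6.40 in the control, and Des was 6.23 with cocaine and 5.95 in the control. After quantile normalization 7 of the 11 differences were above 0, with a median of 0.03. As deposited 2 of the 11 were identical on both arrays and the median was 0.00, so the count above 0 depends on the scaling. Pdgfrb, the growth factor receptor of pericytes, was 6.73 with cocaine and 6.99 in the control, a gene added with its value in view. Abcc9, Des and Pdgfrb lay within the range of the background rows on both arrays. Notch3, at intensities of 215 with cocaine and 140 in the control, lay within that range on the control array. The part of these cells in the difference of Cav1 was not tested.

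Pecam1 and Tek are also carried by some blood and myeloid cells. Of 9 measured macrophage markers, only Csf1r exceeded 1.5-fold (6.59 with cocaine and 5.91 in the control). Their median difference was 0.20, and their summed intensity was 6773 in the cocaine thymus and 6274 in the control thymus. Among 5 erythroid markers, Hba-a1 was lower by more than 1.5-fold (11.18 with cocaine and 11.93 in the control), while Alas2, the first enzyme of heme synthesis in erythroid cells, was 6.08 with cocaine and 5.54 in the control. Hbb was 8.45 with cocaine and 8.49 in the control, and the median of the 5 was 0.05. Csf1r (intensities of 95.1 with cocaine and 61.0 in the control) and Alas2 (66.4 and 47.2) were below the median of the background rows on both arrays. The part of these cells in the differences of Pecam1 and Tek was not tested. The 7 measured immature thymocyte markers had a median of -0.16, and all lay within 1.5-fold.

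**Figure D3:**
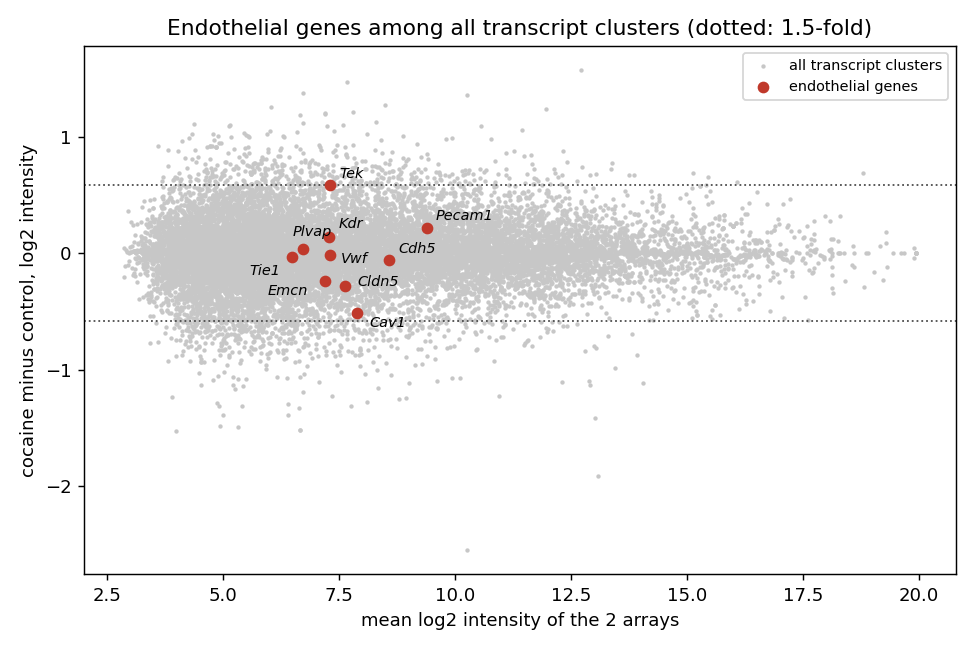
Cocaine minus control difference in log2 intensity (vertical axis) against the mean log2 intensity of the 2 arrays (horizontal axis) for all 23188 transcript clusters (grey) and the 10 endothelial genes (red), with dotted lines at 1.5-fold. The members lie at means from 6.49 (Tie1) to 9.39 (Pecam1), where grey points spread past both lines, and only Tek touches a line.

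With 2 arrays the pattern of a gene is a single difference, so likeness between genes says little. Within 0.05 of the log2 difference of Tek there were 267 other transcript clusters, and within 0.05 of that of Cav1 there were 365. For Plvap, whose difference was 0.04, there were 6956. No gene is named for likeness on this basis.

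Other genes that are typical of endothelium as a whole were measured for 18 of 24 names. Cd34, a sialomucin of capillaries and of progenitor cells, was the only gene of the 18 past 1.5-fold, with a higher value in the cocaine thymus. Cd34 was 6.41 with cocaine and 5.54 in the control, below the median of all transcript clusters on both arrays. Its intensities, 83.7 with cocaine and 47.3 in the control, were also below the median of the background rows (109). The higher value therefore does not show that Cd34 changed. Calcrl, the receptor subunit for adrenomedullin, was 10.22 with cocaine and 9.83 in the control, and Adgrf5, an adhesion receptor of endothelium, was 7.94 with cocaine and 8.36 in the control. The median of the 18 genes was 0.01 on the log2 scale, and 7 of them were identical as deposited. Over all transcript clusters 27.2% were identical, compared with 2 of the 10 members.

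Transcription factors that maintain endothelium were measured for all 12 names, and all lay within 1.5-fold with a median of 0.00. Erg, an ETS factor that keeps endothelial cells differentiated, was 7.12 with cocaine and 7.45 in the control. Hey1, a target of Notch in arteries, was 5.57 with cocaine and 6.07 in the control, and Tal1 was 5.43 with cocaine and 5.32 in the control. Ets1 and Fli1, other ETS factors of endothelium, are also strongly expressed by thymocytes. They were the only factors of this list above all background rows on both arrays, which limits what the other values show.

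ETS factors bind many endothelial promoters, so the start regions of the members were searched for the letters AGGAAG as an ETS core, and for GATAA, the core of GATA sites, GGGCGG, the GC box, TATAAA, the core of the TATA box, and TGTTTAC, a forkhead site, on both strands. RefSeq windows of the build GRCr8, from 250 bases before to 50 bases after the start, were matched by symbol for 6 of the 10 members, with 7 windows in all because Cav1 has 2 starts. Pecam1, Cdh5, Tek and Vwf had no matched window. AGGAAG was found in the windows of Emcn, Tie1 and Plvap, 3 of 7, while 34.5% of all 33469 windows hold it. GGGCGG was found in 5 of 7 windows against 33.1% of all, GATAA in 2 of 7 against 26.5%, TATAAA in 2 of 7 against 14.2%, and TGTTTAC in none of the 7 against 3.78%. No matches overlapped in these windows. A match describes letters only. The windows below are the 3 with AGGAAG and that of the upstream start of Cav1, the member with the most negative difference. They are written 5′ to 3′ in the direction of the gene, with every match to one of these motifs in capitals.
Emcn, chr2:228564289-228564588, plus strand: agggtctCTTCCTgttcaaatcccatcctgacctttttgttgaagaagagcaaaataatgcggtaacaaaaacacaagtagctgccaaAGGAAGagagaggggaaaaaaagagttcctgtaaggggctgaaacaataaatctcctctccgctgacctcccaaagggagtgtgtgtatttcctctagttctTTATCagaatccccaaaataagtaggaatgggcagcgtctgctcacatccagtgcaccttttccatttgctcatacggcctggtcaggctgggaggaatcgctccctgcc
Tie1, chr5:137304932-137305231, minus strand: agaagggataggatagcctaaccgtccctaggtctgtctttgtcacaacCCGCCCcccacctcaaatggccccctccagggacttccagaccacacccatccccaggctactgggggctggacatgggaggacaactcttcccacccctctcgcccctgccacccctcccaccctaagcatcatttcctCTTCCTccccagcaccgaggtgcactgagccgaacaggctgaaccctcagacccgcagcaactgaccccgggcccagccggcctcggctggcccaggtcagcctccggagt
Plvap, chr16:18231230-18231529, minus strand: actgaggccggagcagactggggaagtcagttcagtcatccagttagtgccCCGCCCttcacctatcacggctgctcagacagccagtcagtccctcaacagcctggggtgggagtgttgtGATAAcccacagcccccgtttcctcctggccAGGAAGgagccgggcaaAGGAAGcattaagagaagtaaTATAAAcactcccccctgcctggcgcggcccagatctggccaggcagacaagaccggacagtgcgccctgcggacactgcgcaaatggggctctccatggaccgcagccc
Cav1, chr4:46606288-46606587, plus strand: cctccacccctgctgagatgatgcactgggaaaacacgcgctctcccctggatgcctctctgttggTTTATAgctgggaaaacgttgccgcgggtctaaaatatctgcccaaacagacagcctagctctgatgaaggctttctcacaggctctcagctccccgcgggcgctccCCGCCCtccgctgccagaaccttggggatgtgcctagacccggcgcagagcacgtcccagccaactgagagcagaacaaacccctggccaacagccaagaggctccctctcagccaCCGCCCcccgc
The capitals in Emcn are AGGAAG in both directions and 1 reversed GATAA. Tie1 holds a reversed GGGCGG and, nearer its start, a reversed AGGAAG. Plvap holds 2 copies of AGGAAG as written, with TATAAA closer to the start. The Cav1 window holds a reversed TATAAA and 2 reversed GGGCGG. The differences of the 3 genes with AGGAAG were -0.24 for Emcn, -0.03 for Tie1 and 0.04 for Plvap, and those of the 3 matched genes without it were -0.51 for Cav1, -0.28 for Cldn5 and 0.14 for Kdr. Both ranges hold values above and below 0.

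**Figure D4:**
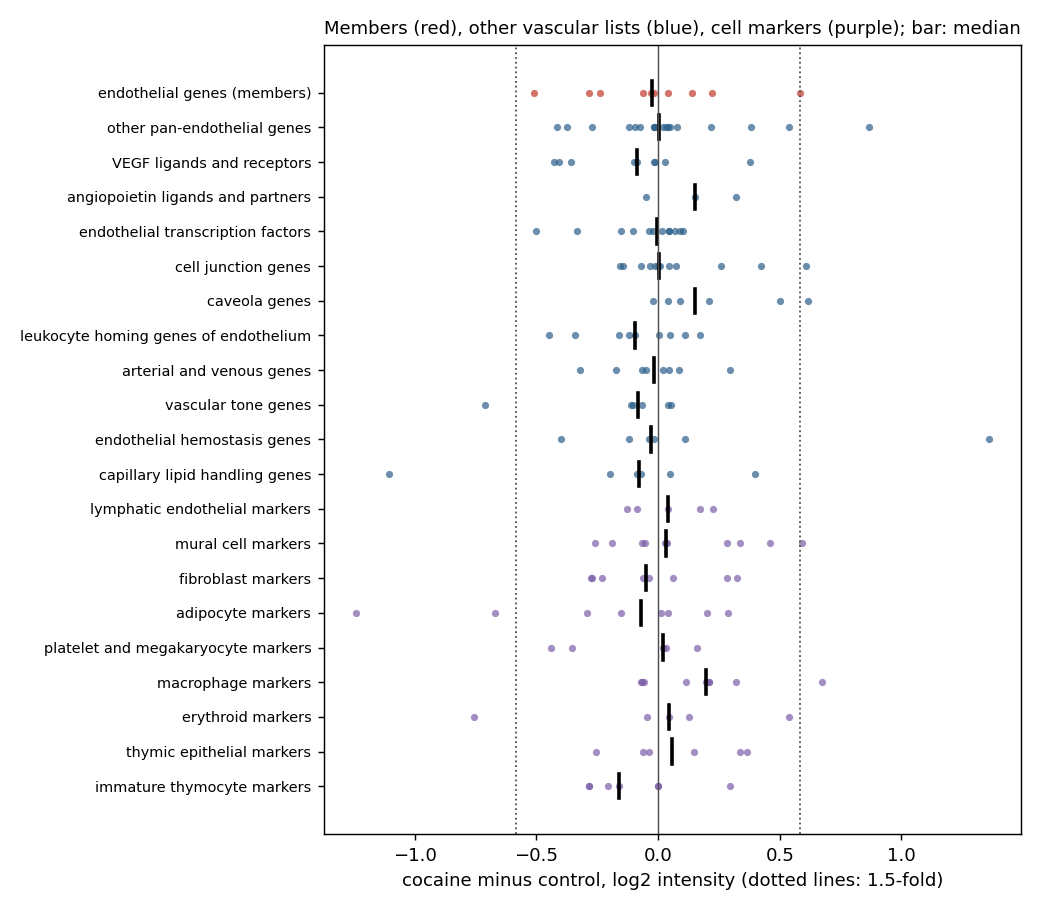
Cocaine minus control difference in log2 intensity (horizontal axis) of every measured gene (points) in the endothelial list (red), 11 other vascular lists (blue) and 9 cell marker lists (purple), with a black bar at each list's median and dotted lines at 1.5-fold. The medians run from -0.16 (immature thymocyte markers) to 0.20 (macrophage markers), with the endothelial genes at -0.02.

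Genes of leukocyte entry and exit were measured for 9 of 11 names, and all 9 lay within 1.5-fold with a median of -0.10. Vcam1, an adhesion molecule of activated endothelium and of stroma, was 9.53 with cocaine and 9.98 in the control. Icam1 was 6.98 with cocaine and 6.81 in the control. Icam2, which endothelium shares with lymphocytes, was 12.40 with cocaine and 12.52 in the control. The 6 genes of capillary lipid handling included 1 that was lower by more than 2-fold, Fabp4, a fatty acid carrier of capillary endothelium, adipocytes and macrophages, at 11.76 with cocaine and 12.87 in the control. Gpihbp1, which holds lipoprotein lipase on capillaries and is the gene of this list most restricted to endothelium, was 5.82 with cocaine and 5.43 in the control, and Lpl itself was 8.69 with cocaine and 8.88 in the control. Both intensities of Gpihbp1 (55.8 with cocaine and 43.6 in the control) were below the median of the background rows, so it is not set against Fabp4.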

How the data were processed

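Thymus RNA of the cocaine group and of the control group was measured on 1 Clariom S array each. The authors used the TAC software and deposited a linear intensity for each row; its version, background correction, normalization and genome build were not stated in the labels or methods. Of 24834 rows, 1646 control rows were left out, which gave 23188 transcript clusters. Gene symbols came from the platform annotation for 15049 of them, with none naming several genes, and 8139 were unnamed. All 15049 were matched by gene number to RefSeq (assembly GRCr8), which changed no symbol.

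The deposited intensities were taken to log2 after quantile normalization of both arrays. Differences are cocaine minus control, and a fold is the larger value over the smaller. With 1 array per group there was no test and no p-value, and precision is limited by the number of arrays. Medians and counts past 1.5-fold and 2-fold were set beside those of all transcript clusters. The other scalings were the values as deposited, each array centred on its median, and a lowess curve (fraction 0.3). Filters at the 25th percentile and the median of mean level were also tried.

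The members and the 20 other lists (11 vascular, 9 of cell markers, 159 of 185 entries measured) were chosen with earlier results of these data known. Genes named were the members, up to 3 per list with the largest differences whose mean reached the 25th percentile, and any such gene past 1.5-fold. Cav2, Flt1, Pdgfrb and Ptgis were added after their values were seen. The steps were tested on simulated data. The software was Python 3.11.15, with the packages numpy (2.4.6), pandas (2.3.3), statsmodels (0.14.6) and, for figures, matplotlib (3.10.9).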

Additional observations from a re-analysis of the deposited data

How the results depend on the processing

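No paired analysis was possible because there was only 1 array in a group, so none could be left out either. All 30 alternative values of the 10 member differences lay within 1 robust SD of the 1000 nearest transcript clusters, and the largest move of a member was 0.09. Cdh5 and Vwf, identical as deposited, were -0.06 and -0.02 after quantile normalization and 0.02 each with arrays centred on their medians, so they have no direction. Tek remained past 1.5-fold under each scaling, though only at 1.5004-fold after quantile normalization, and at 2-fold 0 members were higher. Its mean log2 level of 7.31 was above both filters on dim genes, so their outcome was fixed by that level. The median intensity was 107 with cocaine and 108 in the control, below the median of the background rows (109). Neither filter therefore removes genes at background intensity. The median of the members was -0.02 to 0.02 under the scalings. Over all transcript clusters, 460 were higher and 531 lower at 1.5-fold, against 35 and 52 at 2-fold and 244 and 227 where the mean level reached the median, which counts fewer transcript clusters. The median of the hemostasis genes was -0.03, and 0.028 with arrays centred on their medians, and that of the fibroblast markers was -0.05, against 0.0115 as deposited and 0.0338 with centring. The medians of arterial and venous genes (-0.02, and 0.02 with centring) and of endothelial transcription factors (0.00 to 2 decimals under quantile normalization, and 0.01 with centring) also changed sign. None of these 4 medians has a settled sign, nor has that of the members. The other 57 values of list medians moved by at most 0.05. Signals of 6 members did not exceed all background rows on both arrays, which limits what their differences can show.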

Other observations

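The measured differences of arterial, venous and lymphatic genes were also small, but most of these genes lay within the range of the background rows. Of 8 measured arterial and venous genes, all lay within 1.5-fold, with a median of -0.02 on the log2 scale and 3 genes identical as deposited. In deposited intensity only Efnb2 and Notch1 of this list were above all background rows on both arrays. Dll4, a Notch ligand listed here as arterial, was 7.60 with cocaine and 7.31 in the control. RNA of the whole organ was measured, so the cells that carried Dll4 were not identified. Notch4, its mainly endothelial receptor, was 5.50 with cocaine and 5.82 in the control, and Notch1, which thymocytes also use, was 9.41 with cocaine and 9.58 in the control. All 5 measured lymphatic endothelial markers lay within 1.5-fold, with a median of 0.04. These 5 also lay within the range of the background rows on both arrays, so their small differences do not show that they were unchanged. Pdpn, shared with stromal cells, was 6.91 with cocaine and 7.03 in the control, and Reln was 6.31 with cocaine and 6.14 in the control. Prox1, the transcription factor that defines lymphatic endothelium, was identical as deposited (37.0 on both arrays).

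Of 6 measured genes of vascular tone, Ptgis was lower by more than 1.5-fold and 5 lay within it. Ptgis encodes prostacyclin synthase and was a dim gene, named with its value in view, at 4.72 with cocaine and 5.43 in the control. Ptgs1, which supplies its substrate, was 6.14 with cocaine and 6.25 in the control. Ece1, which processes endothelin, and Adm, the ligand of Calcrl, were identical as deposited, and 3 of the 6 genes were identical in all. The 6 thymic epithelial markers lay within 1.5-fold, with Foxn1 at 9.15 with cocaine and 8.78 in the control, Prss16 at 16.41 with cocaine and 16.07 in the control, and Epcam at 9.22 with cocaine and 9.48 in the control.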
